A study of Mus musculus with 12 samples.

Results

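NKX2-5 is a homeodomain transcription factor that cardiac muscle keeps expressing throughout life, and during development it takes part in the formation of the ventricular trabeculae and of the conduction system. Trabeculae are the muscular ridges that line the inside of the embryonic ventricle. They later become part of the compact wall, and some of their cells give rise to the Purkinje fibres. The data described here are the left ventricular transcripts of adult mice that lost Nkx2-5 from trabecular muscle in fetal life, while the trabeculae were compacting, compared with control hearts across all genes. The members are the 4 hearts labelled with tamoxifen at E13.5 and E14.5, called Nkx2-5ΔTrbE14 in the study (TrbE14 below) and Nkx2-5Δcomp in the sample labels, and the 4 control hearts, that is 8 of the 12 samples. The other 4 samples are hearts from an earlier deletion at E10.5 and E11.5 (TrbE10), and they were used here for a shared estimate of the spread and for values side by side.

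All mice were 6 months old. In the mutants floxed Nkx2-5 (Floxed-Nkx2-5-ΔNeo) was combined with Cx40-creERT2, and the study denotes the outcome Nkx2-5-/-. Cx40-creERT2 is a tamoxifen-inducible Cre placed under Cx40, the gap junction gene also called Gja5. That gene is active in embryonic trabecular muscle but also in atrial muscle, the conduction system and arterial endothelium. Tamoxifen was given to the pregnant female on consecutive days, and the newborns were delivered by caesarean and raised by foster mothers. The study's methods describe the controls as littermates of genotype Nkx2-5-ΔNeo fl/fl and Cx40+/+, homozygous for the floxed allele and without Cre. The groups therefore differ at Cx40 as well. The labels, by contrast, say that the controls received no injection. An effect of the Cre allele, of tamoxifen or of fostering thus cannot be told apart from that of the deletion. RNA came from the left ventricular wall with the apex and without the septum, 1 mouse per one-colour Agilent array. In such tissue more cells of a type and more RNA per cell cannot be told apart.

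Values are log2 of the scanner's background-subtracted intensity after quantile normalization, so that a difference of 1 is a doubling. Of 55681 probes, 24593 for 18021 gene names were tested with limma, those read well above background on 3 or 4 arrays of some group. A gene was called where the adjusted p of any of its probes, after Benjamini and Hochberg, was under 0.05. The ventricular genes were bright in both groups: Myl2, the ventricular regulatory light chain, had means of 17.29 and 17.33. Atrial light chain 2 (Myl7) spread widely in both, between 8.68 and 12.13 in control and between 9.04 and 11.53 in TrbE14 hearts. The groups occupied opposite ends of 1 slide, so that position and group cannot be told apart, and Y-linked signal was present in 1 of 4 control and 3 of 4 TrbE14 hearts. TrbE14 replicates 3 and 4 stood apart from 1 and 2, with correlations over all tested probes of 0.974 to 0.981 across these pairs and of 0.99 and 0.987 within them. Between the pairs, 483 probes differed by more than 1 with less than 0.5 within each pair. The acute-response genes Atf3 (7.79 and 7.53 against 10.48 and 10.71) and Myc (6.05 and 5.83 against 8.34 and 8.58) were higher in replicates 3 and 4, and control replicate 1 had an Atf3 signal of 10.13 as well.

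Nkx2-5 itself was lower in every TrbE14 heart, as was seen with 1 probe in the gene (chr17:26975621-26975680, mm9). The control arrays read 11.95, 12.23, 11.93 and 11.89, and the TrbE14 arrays 11.12, 11.57, 11.32 and 11.62. The groups did not overlap, and the difference of -0.59 ± 0.14 (SE, n = 4 per group) did not pass the threshold over all probes (adjusted p = 0.106, exact two-sided permutation p = 0.0286, the smallest that 4 against 4 allows). The sources used here do not say whether this probe lies in the deleted part, and the deletion was aimed at trabecular muscle alone. Gja5, the gene that drives Cre, read 7.57, 7.09, 8.83 and 7.78 in control and 8.15, 7.34, 6.83 and 7.05 in TrbE14 hearts, with overlapping groups and a difference of -0.47 ± 0.36 (adjusted p = 0.572).

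In TrbE14 hearts 137 genes were called, 0.76% of those tested. Of these, 105 were higher (0.583%) and 32 lower (0.178%). The median change was 1.19 among the called genes that were higher and -1.03 among those that were lower, while over all genes tested it was -0.031. A positive change was seen in 44.1% of all genes. In all 137 the arrays of the groups did not overlap, as was true of 10.1% of all genes (4.65% higher and 5.43% lower). Without adjustment, 3340 probes (13.6%) had a p under 0.05. In 99 of the called genes the signal was well above background on 3 or 4 arrays of both groups, and 41 of these at least doubled while 5 at least halved. At the called probe, 18 genes had no control array and 13 had no TrbE14 array well above background. These genes were kept by the filter through the other groups alone. Their folds are given below as lower bounds, which hold for this processing alone. With detection required on 9 of 12 arrays, whatever their group, 103 genes were called, 85 higher and 18 lower. The number of calls depended on the arrays included: it was 50 without TrbE14 replicates 3 and 4 and 322 without replicates 1 and 2. The share of called genes that were higher was 84.0% in the first case and 41.9% in the second. With any 1 of the 8 compared arrays left out, the number fell to between 76 (without control replicate 3) and 99 (without TrbE14 replicate 1). When sex was included in the model, 169 genes were called, 102 of them the same.

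**Figure D1:**
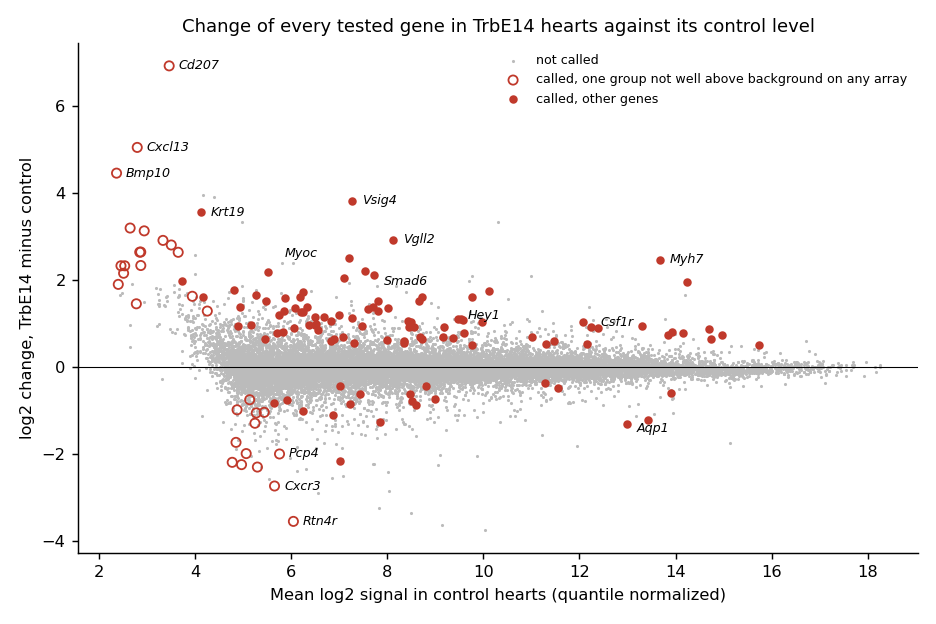
Change of each of the 18021 tested genes (vertical axis, log2 of TrbE14 over control) against its mean log2 signal in control hearts (horizontal axis), both quantile normalized. Red marks the 137 called genes, open where no array of one group was well above background; these open circles lie at the dim end and include Cd207 at the top and Rtn4r at the bottom, while Vsig4, Vgll2 and Myh7 were bright in both groups.

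The plot of change against control level shows that the largest fitted changes belonged to genes near background in one group, and that among the genes measured in both groups the increases led the decreases. The quantities of the dim genes depend on how background is handled. With the authors' own normalized values the change in Bmp10 was 1.75 in place of 4.45, in Cxcl13 2.78 in place of 5.05 and in Cxcr3 -0.73 in place of -2.75. The changes in Eya4 and Fam38b were 0.05 and 0.08 in place of 2.15 and 2.32.

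Among muscle genes, the slow myosin heavy chain rose in every TrbE14 heart. Myh7 encodes the beta heavy chain that the mouse ventricle uses before birth and replaces by the alpha chain of Myh6. Its probe (chr14:55589581-55589640, mm9) read 13.68, 13.30, 13.96 and 13.73 in control hearts and 15.88, 15.39, 17.06 and 16.17 in TrbE14 hearts. Every TrbE14 heart was above every control, with replicate 3 the highest, and the difference was 2.46 ± 0.36 (adjusted p = 0.0107). It was 1.97 (adjusted p = 0.0866) without replicates 3 and 4. An unnamed probe next to it (chr14:55589521-55589580), picked out after its values were seen, rose by 1.94 from a control mean of 14.23 (adjusted p = 0.00414). D830015G02Rik, now Mhrt, a noncoding transcript antisense to Myh7, fell by 0.611 (adjusted p = 0.0450). Myh6 had means of 17.92 and 17.71, a change of -0.21 that did not pass (adjusted p = 0.332).

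Of 14 measured genes of the stretch and hypertrophy response, 2 were called, Myh7 and Ankrd1, where 0.76% of all genes were. The median change over the list was 0.37. Ankrd1, a nuclear and sarcomeric protein induced by stretch, read 14.44, 14.76, 14.64 and 14.94 in control and 15.65, 15.55, 15.66 and 15.41 in TrbE14 hearts. The groups were fully separate and the difference was 0.87 ± 0.13 (adjusted p = 0.0135), a call that was lost without control replicate 3. Nppa, the atrial natriuretic peptide gene and a known target of NKX2-5, was 12.93, 14.92, 15.04 and 13.87 in control and 15.84, 15.42, 15.95 and 16.15 in TrbE14 hearts. These groups did not overlap either, but the controls spread over more than 2 units and the change of 1.65 ± 0.54 did not pass (adjusted p = 0.240). Nppb, the brain natriuretic peptide gene, had overlapping groups and a change of -0.20 (adjusted p = 0.847). Among 19 sarcomere genes of the ventricle, 13 calcium handling genes and 14 potassium and sodium channel genes, 0 were called, and their median changes were 0.01, -0.07 and -0.03.

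NKX2-5 and its relatives bind a core motif, TNAAGTG, and the sequences before the start sites of Myh7 and Nppa are shown because both windows hold it. They are RefSeq sequences on GRCm38.p6 with the motif, on either strand, in capitals. The Myh7 window lies on the minus strand at chr14:54994627-54994876 and holds the motif on the other strand, starting 177 bases before the start site. The Nppa window lies on the plus strand at chr4:148000472-148000721 and holds it 241 bases before the start site.
Myh7: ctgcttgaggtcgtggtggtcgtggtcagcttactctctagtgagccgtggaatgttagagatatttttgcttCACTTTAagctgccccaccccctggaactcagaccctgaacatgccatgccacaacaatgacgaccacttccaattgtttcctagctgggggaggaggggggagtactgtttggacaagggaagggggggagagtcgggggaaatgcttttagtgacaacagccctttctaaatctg
Nppa: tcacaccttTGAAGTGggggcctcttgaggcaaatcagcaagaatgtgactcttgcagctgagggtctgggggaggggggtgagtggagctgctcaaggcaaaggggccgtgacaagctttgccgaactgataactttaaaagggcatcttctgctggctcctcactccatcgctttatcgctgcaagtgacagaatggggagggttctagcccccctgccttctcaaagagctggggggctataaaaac
Of all 32851 windows from 250 bases before to 50 after a start site, 3790 held the motif, a share close to that among the called genes that were higher. Among the 85 windows of the 69 called and matched genes that were higher in TrbE14 hearts, 11 (12.9%) held it, among them those of Myh7, Apoe, Rorb and Vegfd. It was in 0 of the 20 windows of the genes that were lower.

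Among 16 measured cardiac transcription factors, Nkx2-5 included, 1 was called. Tbx20, a T-box factor needed for chamber development, was called with 1 of its 3 probes, which read 6.21, 6.19, 6.19 and 6.23 in control and 6.93, 7.25, 7.98 and 7.74 in TrbE14 hearts. The controls were nearly identical and replicates 3 and 4 of the mutant the highest, with a difference of 1.27 ± 0.23 (adjusted p = 0.0341) that was 0.88 (adjusted p = 0.226) without them. Its brightest probe changed by 0.37 and was not called. Gata4 had means of 11.65 and 11.87 (adjusted p = 0.449). Among called transcription factors outside the lists, and named after their values were seen, Rorb, an orphan nuclear receptor, rose by 1.29 (adjusted p = 0.0341), Etv4, an ETS factor, by 1.05 (adjusted p = 0.00276) and Meox1, a homeobox factor of activated fibroblasts, by 1.02 (adjusted p = 0.0341).

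Bmp10, a ligand of the trabeculae in the embryonic heart that the adult heart restricts to the atria, was at background in every control. It read 2.36, 2.36, 2.35 and 2.37 there and 6.89, 6.60, 7.03 and 6.73 in TrbE14 hearts, which makes it at least 4.75-fold higher in the mutant (adjusted p = 2.82e-04). The control with the brightest Myl7, at 12.13, had a Bmp10 signal of 2.35, at background like the other controls. The part of atrial tissue in these values was not tested. Of the 10 atrial genes, Bmp10 was the single one called, the list's median was 0.12 (0.42 without TrbE14 replicates 3 and 4), and the summed level of the list ran from 8633 to 39820 in control and from 22910 to 40130 in TrbE14 hearts. Sln, sarcolipin, an inhibitor of the calcium pump that the atria express, read 8.57, 10.83, 12.48 and 9.31 in control and 13.87, 13.71, 13.53 and 13.38 in TrbE14 hearts. All TrbE14 values were above the controls and close together, and the change of 3.33 ± 0.66 just missed the threshold (adjusted p = 0.0511). Dkk3, the third of the list with separate groups, had a change of 1.46 (adjusted p = 0.106), whereas Myl4 and Myl7 had changes of 0.09 and -0.001.

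Smad6, an inhibitory Smad that BMP signalling induces and that dampens it, was 7.62, 8.16, 7.47 and 7.65 in control and 9.93, 9.68, 9.73 and 9.96 in TrbE14 hearts. The groups lay far apart with little spread, and Smad6 rose by 2.10 ± 0.21 (adjusted p = 8.15e-04). It was the single call among 25 measured genes of the BMP and TGF-beta pathway. Of these, 20 had positive changes, as did 44.1% of all genes, and the median was 0.40 against -0.031 for all genes. Id1, Id3 and Smad7, other targets of these pathways, had changes of 0.95, 0.72 and 1.17 that did not pass (adjusted p of 0.382, 0.103 and 0.260). The ligands Bmp2 and Bmp4 had changes of -0.22 and 0.12 (adjusted p = 0.598 and 0.863).

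Hey1, a transcriptional repressor that Notch signalling induces, was 9.57, 9.69, 9.24 and 9.40 in control and 10.49, 10.54, 10.53 and 10.70 in TrbE14 hearts. It rose by 1.09 ± 0.12 (adjusted p = 0.00161) with no overlap. Of 16 measured genes of the Notch pathway Hey1 was the single one called, and the median was -0.10. The receptors Notch1 and Notch2 had changes of 0.35 ± 0.68 (adjusted p = 0.839) and -0.17 (adjusted p = 0.543). Of 7 measured neuregulin and trabecular signals 0 were called. Nrg1, the endocardial ligand of the ErbB receptors, was separate between groups, with means of 5.85 and 6.63 (adjusted p = 0.202).

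**Figure D2:**
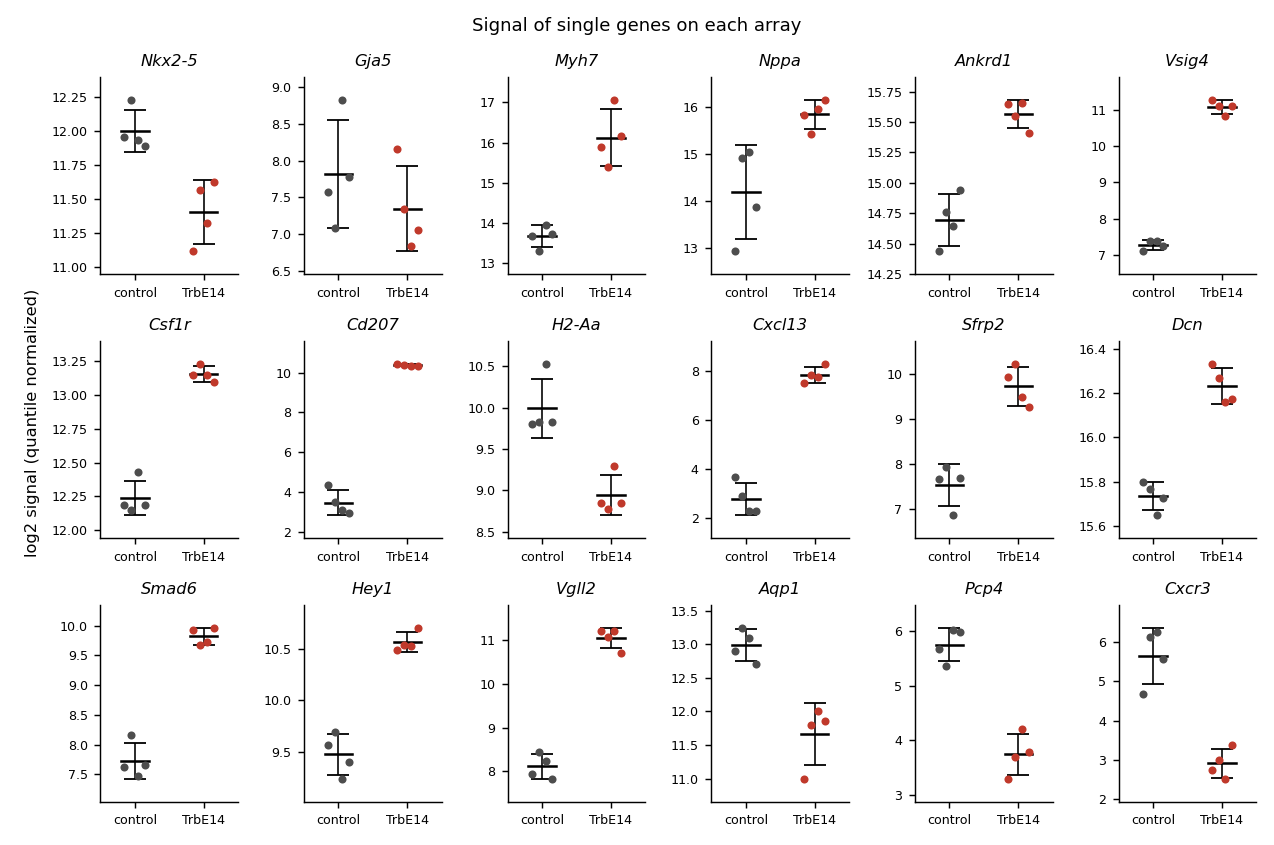
log2 signal (quantile normalized) of 18 genes in the 4 control and the 4 TrbE14 hearts, each point an array, with the mean and SD as bars; each gene has its own vertical axis. Nkx2-5, H2-Aa, Aqp1, Pcp4 and Cxcr3 were lower in all 4 TrbE14 hearts, Gja5 overlapped, and the other 12 genes were higher in all 4.

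The genes plotted by array show how narrow the spread was for some myeloid genes. Vsig4, a complement receptor of resident macrophages, had the smallest adjusted p along with Cd207. It read 7.09, 7.38, 7.37 and 7.25 in control and 11.29, 11.12, 10.84 and 11.11 in TrbE14 hearts, a rise of 3.82 ± 0.16 (adjusted p = 8.75e-07). Csf1r, the receptor on which macrophages depend, read 12.19, 12.15, 12.43 and 12.19 against 13.14, 13.23, 13.15 and 13.10 and rose by 0.92 ± 0.08 (adjusted p = 6.07e-04). Csf1, a ligand of that receptor, rose by 0.55 (adjusted p = 0.0244). Of 27 measured macrophage and myeloid genes these receptors, Vsig4 and Csf1r, were the 2 calls, where 0.76% of all genes were called. Positive changes were seen in 23, against 44.1% of all genes, and the median was 0.335 (0.22 with the authors' values). The summed level of the list, in which bright genes weigh most, ran from 27650 to 32280 in control and from 37310 to 42310 in TrbE14 hearts, without overlap. Its mean log2 signal per array was separate as well, from 8.63 to 8.88 and from 9.11 to 9.24. Its median log2 signal per array overlapped, from 8.64 to 9.21 in control and from 9.05 to 9.44 in TrbE14 hearts. The other 25 were not called, and those given here were chosen after their values were seen. Ctss, a lysosomal protease, and the complement chains C1qa and C1qc had separate groups, with changes of 0.65, 0.53 and 0.50 (adjusted p = 0.111, 0.135 and 0.170). Emr1 (F4/80) had means of 8.12 and 8.30 (adjusted p = 0.601), Mrc1, Lyve1 and Itgam had changes of -0.06, 0.03 and 0.04, and Ms4a7 had a change of -0.37. Outside the list and named after their values were seen, Trem2, a lipid-sensing receptor of macrophages, rose by 1.28 (adjusted p = 0.00799), Apoe by 0.63 (adjusted p = 0.0487) and Lcp1, a leukocyte actin-bundling protein, by 0.65 (adjusted p = 0.0305). Msr1, a scavenger receptor, had means of 4.25 in control, at background, and 5.53 in TrbE14 hearts (adjusted p = 0.00384).

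Cd207, or langerin, the lectin that defines Langerhans cells of the skin, had the largest increase of all genes tested. It read 4.33, 3.47, 3.09 and 2.93 in control, none well above background, and 10.44, 10.37, 10.35 and 10.34 in TrbE14 hearts. The mutant values were nearly the same, and Cd207 was at least 56.1-fold higher (adjusted p = 8.75e-07). That bound holds for this processing: the log2 change was 6.92 here, 5.31 with the authors' values and 4.04 with normexp, another background correction. It was listed with genes of dendritic cells and MHC class II, and the other 8 measured genes of that list all had negative changes, none of them called. H2-Aa, a class II alpha chain, read 9.80, 9.83, 10.53 and 9.82 in control and 8.84, 8.77, 9.30 and 8.85 in TrbE14 hearts. The groups were separate, with a difference of -1.05 ± 0.21 (adjusted p = 0.0562). H2-Ab1, H2-Eb1, Itgax and Cd74 had changes of -0.67, -0.88, -0.59 and -0.45, and the median of the 9 genes was -0.58.

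Other immune lists had few calls. Cxcl13, a chemokine that attracts B cells, read 3.69, 2.89, 2.28 and 2.30 in control and 7.49, 7.83, 7.74 and 8.28 in TrbE14 hearts and was at least 9.64-fold higher (adjusted p = 7.72e-05). It was the single call among 17 measured chemokines, whose median was -0.05. Cfi, the complement factor I protease, was at least 2.41-fold higher (adjusted p = 6.45e-05) and the single call among 12 complement genes (median 0.26). Of 9 measured lymphocyte genes 0 were called, with a median of -0.15, and of 13 interferon response genes 0 were called, 2 had positive changes and the median was -0.33 (-0.05 without TrbE14 replicates 3 and 4 and -0.64 without replicates 1 and 2). Cpa3, the mast cell carboxypeptidase, was at least 1.54-fold higher (adjusted p = 0.0161). Mcpt4, a mast cell chymase, read 7.04, 5.91, 4.70 and 6.49 in control and 8.01, 7.96, 8.91 and 8.80 in TrbE14 hearts, a change of 2.38 ± 0.58 that did not pass (adjusted p = 0.107). The 6 measured mast cell genes had a median of 0.81, which was 0.49 without TrbE14 replicates 3 and 4, 1.26 without replicates 1 and 2, 0.49 with the authors' values and 0.41 with normexp.

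Of 25 measured genes of the matrix and fibroblast list, 3 were called, all higher, 22 had positive changes, 10 were separate between groups and all of those were higher, and the median was 0.65. Over all genes 0.583% were called and higher, 44.1% had positive changes and 4.65% were separate and higher. The summed level ran from 118900 to 135600 in control and from 174100 to 189800 in TrbE14 hearts. Sfrp2, a secreted Wnt modulator, read 7.65, 7.93, 6.86 and 7.68 in control and 9.94, 10.23, 9.49 and 9.27 in TrbE14 hearts, a rise of 2.20 ± 0.38 (adjusted p = 0.0259). Dcn, the proteoglycan decorin, was 15.80, 15.77, 15.65 and 15.73 against 16.33, 16.27, 16.16 and 16.18 and rose by 0.50 ± 0.08 (adjusted p = 0.0190). Fbn1, fibrillin-1 of the elastic microfibrils, rose by 0.67 ± 0.10 (adjusted p = 0.0142). The changes in Dcn and Fbn1 were small, as was their spread. The calls of Sfrp2, Dcn and Fbn1 were each lost without control replicate 3 or 4. Comp and Timp1 had larger changes, 1.98 and 1.87, that did not pass (adjusted p = 0.112 and 0.0897), and Postn, periostin, had 1.06 (adjusted p = 0.250). Without TrbE14 replicates 3 and 4 the median of the list was 0.39 and without replicates 1 and 2 it was 0.47.

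Of 14 measured collagens, 12 had positive changes, against 44.1% of all genes, with a median of 0.43. Col4a1, a chain of basement membranes, was the single one called, with a rise of 0.53 ± 0.10 (adjusted p = 0.0438). This rise did not pass once any single control or TrbE14 array was left out. Col1a1 and Col1a2, the chains of type I collagen, had changes of 0.43 and 0.42 with overlapping groups (adjusted p = 0.303 and 0.237). Several called matrix genes were outside the lists and were named after their values were seen. Ecm1, extracellular matrix protein 1, rose by 0.88 (adjusted p = 0.00364), Svep1 by 1.07 (adjusted p = 0.00267), Loxl3, a collagen cross-linking oxidase, by 0.98 (adjusted p = 0.00639) and Col4a4 by 0.60 (adjusted p = 0.00495). Wisp2 (now Ccn5), a matricellular protein, rose from a mean of 7.09 ± 0.31 (SD, n = 4) to 9.13 ± 0.29 (adjusted p = 0.00123). Myoc, the secreted protein myocilin, rose by 2.50 ± 0.32 (adjusted p = 0.00436), with TrbE14 replicate 2 at 8.80 and the others between 9.88 and 10.10. Fap, the fibroblast activation protein, went the other way and fell by 0.745 (adjusted p = 0.0161). Ecm1 lies 1.33 Mb and Phgdh, an enzyme of serine synthesis that fell by 0.625 (adjusted p = 0.00817), 1.25 Mb from Gja5 on chromosome 3. Among other called genes, S100a4, Csf1 and Sfrp2 lie 6.46, 10.68 and 13.29 Mb from Gja5. Of the 318 tested genes within 10 Mb of Gja5, 5 were called (1.57%), and of the 445 on that chromosome beyond 20 Mb, 6 (1.35%), against 0.76% of all genes. Chromosome 3 as a whole had 13 of 882 genes called (1.47%), the highest share of any chromosome. The part of the Cre allele and its flanking chromosome in these was not tested.

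**Figure D3:**
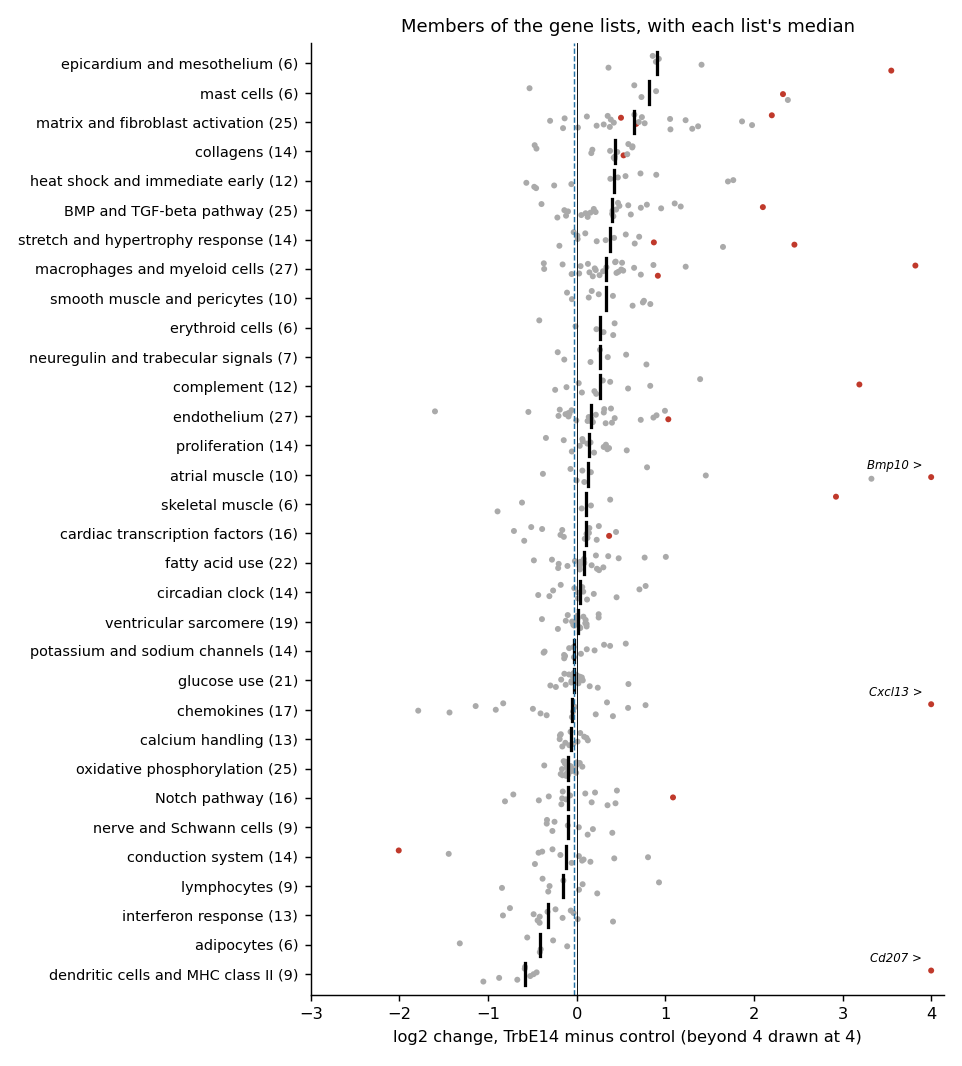
log2 change of each measured member of 32 gene lists (points, at the brightest probe; red where a probe of the gene was called), with the list's median as a black bar and the median of all genes, -0.031, as a dashed blue line; the number measured is in brackets, and Bmp10, Cxcl13 and Cd207 lie beyond the axis. The medians run from 0.91 for epicardium and mesothelium to -0.58 for dendritic cells and MHC class II, and most red points lie on the right.

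The plot of the lists puts other cell types beside these. Krt19, a keratin of mesothelium and other epithelia, had means of 4.11 ± 0.89 (SD) in control, with 1 of 4 arrays well above background, and 7.66 ± 0.27 in TrbE14 hearts and rose by 3.55 ± 0.43 (adjusted p = 0.00341). It was the single call among 6 measured epicardial and mesothelial genes, all of which had positive changes, with a median of 0.91 (1.43 without control replicate 1 and TrbE14 replicate 2). Their summed level ran from 960 to 1468 in control and from 2107 to 3018 in TrbE14 hearts, and the part of this cell type in the other results was not tested. Among 27 endothelial genes, Vwf, the von Willebrand factor, was the single call (a rise of 1.03 ± 0.20, adjusted p = 0.0451), and the median was 0.17. Pecam1 and Cdh5, which mark all endothelium, had changes of 0.33 and 0.40 with separate groups (adjusted p = 0.288 and 0.124). Outside the list and named after their values were seen, Unc5b, a netrin receptor of vessels, rose by 1.03 (adjusted p = 0.00214) and Edn1, endothelin-1, by 0.85 (adjusted p = 0.0259). Figf (now Vegfd), a ligand of the VEGF receptors of lymphatic and blood vessels, rose by 0.91 (adjusted p = 0.0487). Aqp1, the water channel of microvascular endothelium, was lower in every TrbE14 heart. It read 12.91, 13.25, 13.09 and 12.71 in control and 10.99, 11.80, 12.01 and 11.86 in TrbE14 hearts, with a difference of -1.33 ± 0.20 (adjusted p = 0.0139) whose call was lost without control replicate 3. Nrp2, a co-receptor of semaphorins and VEGF, fell by 0.493 (adjusted p = 0.0238).

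Smooth muscle, nerve, adipocyte, erythroid and cell cycle lists held 0 calls, with medians of 0.33, -0.10, -0.41, 0.26 and 0.14. The adipocyte median was -0.16 without TrbE14 replicates 3 and 4 and -0.73 without replicates 1 and 2. The lists of oxidative phosphorylation, fatty acid use and glucose use held 0 calls as well. Oxidative phosphorylation had a median of -0.10 over 25 genes, with 2 positive changes, where 44.1% of all genes had one. The list of heat shock and immediate early genes held 0 calls and had a median of 0.42, which was -0.10 without TrbE14 replicates 3 and 4 and 0.88 without replicates 1 and 2.

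Of the conduction system list, 1 of 14 measured genes was called. Pcp4, a calmodulin-binding peptide enriched in Purkinje fibres, read 5.67, 5.35, 6.01 and 5.97 in control and 3.29, 3.69, 4.21 and 3.78 in TrbE14 hearts. No TrbE14 array was well above background, and Pcp4 was at least 2.45-fold lower (adjusted p = 0.00605). Scn10a, a sodium channel gene, had separate groups and a change of -1.44 ± 0.29 (adjusted p = 0.0523). The summed level of the conduction list ran from 9038 to 10840 in control and from 10380 to 10950 in TrbE14 hearts, and its median change was -0.12.

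Vgll2, a cofactor of TEAD factors best known from skeletal muscle, was bright and strongly higher. It read 7.94, 8.45, 8.24 and 7.83 in control and 11.19, 11.07, 11.20 and 10.71 in TrbE14 hearts, a rise of 2.93 ± 0.22 (adjusted p = 1.62e-04). It was the single call among 6 measured skeletal muscle genes, and Tnni2 and Tnnt3, fast troponins, had changes of -0.89 and 0.06. Stim1, the calcium sensor of the reticulum, rose by 1.60 with both of its probes called (adjusted p = 6.07e-04 for the brighter), and Bin1, which shapes T-tubules, rose by 1.51 (adjusted p = 4.04e-04). Fxyd6, a regulator of the sodium pump, rose by 0.93 (adjusted p = 0.00683). The remaining large increases were read by probes at background in all controls. At these probes Eps8l1, Pacsin1, Grhl3, Fam38b (now Piezo2, a mechanosensitive channel), Mctp1 and Eya4 were at least 2.82-, 3.27-, 1.88-, 1.16-, 1.22- and 1.06-fold higher, with adjusted p from 0.00130 to 0.0255. A brighter probe of Pacsin1 was well above background on all 4 control arrays, changed by 0.32 and was not called (adjusted p = 0.191). For Fam38b, Mctp1 and Eya4, 2 or 3 of the TrbE14 arrays were well above background.

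Of the 32 called genes that were lower, 17 were well above background at the called probe on 3 or 4 arrays of both groups, and 13 on no TrbE14 array. Rtn4r, the Nogo receptor, read 7.06, 6.54, 4.99 and 5.58 in control and 2.47, 2.44, 2.40 and 2.62 in TrbE14 hearts and was at least 3.01-fold lower (adjusted p = 0.0139). Cxcr3, a chemokine receptor of T cells, read 4.67, 6.12, 6.25 and 5.56 against 2.73, 2.99, 2.51 and 3.39 and was at least 2.29-fold lower (adjusted p = 0.00740). Adora2b, an adenosine receptor, was at least 1.79-fold lower at its called probe (adjusted p = 0.0123). Its brighter probe had overlapping groups and a change of -0.97 that did not pass (adjusted p = 0.295). At their called probes Slc36a1, Agbl2, Tmed5 and Ccdc85a were at least 1.42-, 1.24-, 1.31- and 1.73-fold lower. That of Hras1 fell from 5.43 to 4.38. Each of these probes had no TrbE14 array well above background. Except in Agbl2, which has 1 probe here, only 1 of the several probes of these genes was called. Their other probes were brighter and well above background on all 4 TrbE14 arrays. These changed by -0.17 in Hras1, -0.29 in Slc36a1, -0.51 and 0.001 in Ccdc85a, and between -0.50 and 0.33 in Tmed5. Hal, histidine ammonia-lyase, fell by 2.17 ± 0.31 (adjusted p = 0.00903), Ahrr, the repressor of the aryl hydrocarbon receptor, by 1.28 (adjusted p = 0.0477) and Dkkl1 by 1.01 (adjusted p = 0.00436). Fam70b and Oaf fell by 0.886 and 0.845 (adjusted p = 0.0341 and 0.0382), while a brighter probe of Fam70b changed by -0.23 and was not called (adjusted p = 0.45).

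The earlier deletion gave a longer list against the same 4 controls, so that the changes below are not independent of each other. In TrbE10 hearts 387 genes were called (2.15%). Vsig4 had changes of 3.82 and 4.09 in TrbE14 and TrbE10 hearts, Smad6 2.10 and 2.19, Myh7 2.46 and 3.05, and Vgll2 2.93 and 4.22. When the mutants were compared directly, 0 genes passed in limma (smallest adjusted p = 0.141), while 1417 probes (5.76%) had an unadjusted p under 0.05. The TrbE10 arrays were on another slide than the control and TrbE14 arrays. Slide and group therefore cannot be told apart in this comparison, nor in that of TrbE10 with control hearts.

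**Figure D4:**
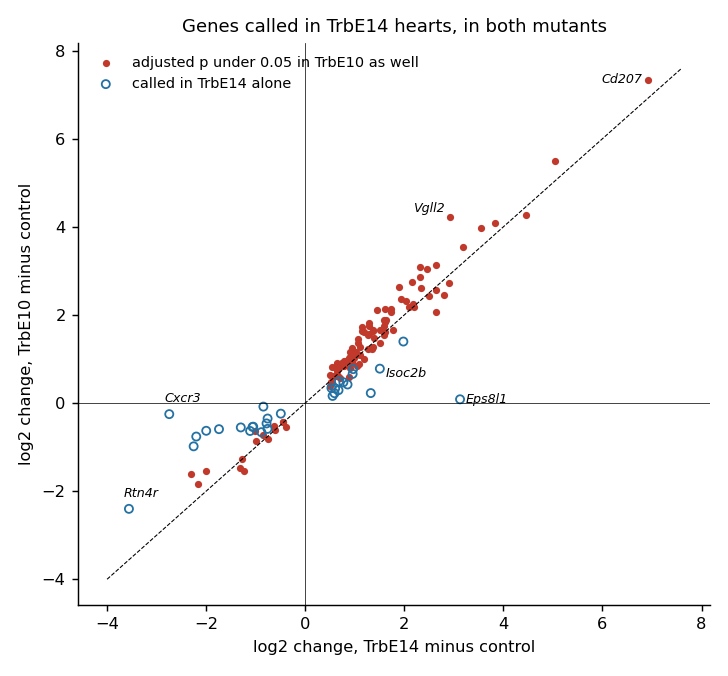
log2 change against control of the 137 genes called in TrbE14 hearts, in TrbE14 (horizontal axis) and TrbE10 hearts (vertical axis); the dashed line marks equal changes, filled points mark genes called in TrbE10 hearts as well and open points the others. The same 4 control hearts enter both axes; Eps8l1 and Cxcr3 lie farthest from the line toward the horizontal axis.

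In the plot of both changes Eps8l1 and Cxcr3, which were not called in TrbE10 hearts, lay farthest from equal values. Eps8l1 read 3.73, 2.87, 2.97 and 2.51 in TrbE10 hearts, close to the controls, against 6.46, 4.99, 6.47 and 6.32 in TrbE14 hearts, a difference between mutants of 3.04 ± 0.39 (adjusted p = 0.141, unadjusted p = 7.25e-06). Cxcr3 read 5.34, 5.03, 6.29 and 4.93 in TrbE10 hearts, with a difference of -2.49 ± 0.38 (adjusted p = 0.141). Fbn1, Col4a1, Col4a4, Edn1 and S100a4, none of them called in TrbE10 hearts, had changes of 0.67, 0.53, 0.60, 0.85 and 0.77 in TrbE14 and of 0.29, 0.34, 0.33, 0.42 and 0.47 in TrbE10 hearts, and 0 of these differences passed between the mutants. The macrophage list had medians of 0.33 in TrbE14 and 0.71 in TrbE10 hearts, with 2 and 12 calls, and 12 of its 27 genes had an unadjusted p under 0.05 in the direct comparison. The list of dendritic cells and MHC class II had medians of -0.58 and 0.19, and 7 of its 9 genes had an unadjusted p under 0.05. H2-Aa read 9.64, 9.77, 10.10 and 10.42 in TrbE10 hearts, all above the TrbE14 values and overlapping the controls (difference between mutants -1.05 ± 0.21, adjusted p = 0.269).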

How the data were processed

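RNA of 12 left ventricles was measured on 12 one-colour Agilent arrays. The authors deposited the output of Agilent Feature Extraction 10.5 for each array, in which the processed intensity is corrected for background within the array and not scaled between arrays, together with their quantile normalized and background-filtered values as log2. The processed intensities were used here. After removal of 3671 control spots and of spots with outlier flags, log2 intensities were quantile normalized over the 12 arrays and averaged per probe. A probe was kept if 75% or more of the arrays in some group showed it well above background, and 7 kept probes lacked a value. On single arrays the 75th percentile ranged from 194 to 250 in control and from 200 to 246 in TrbE14 arrays. No spot was saturated (0). The number of arrays and, for dim probes, the background limit the precision.

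One linear model with a mean per group was fitted with limma 3.58.1 in R 4.3.3 (9 residual and 2.19 prior degrees of freedom), with Benjamini-Hochberg adjustment over all kept probes. Every adjusted p is from limma, and exact two-sided permutation tests used all 70 label orders. A gene is given at its brightest called probe, otherwise at its brightest kept probe, and list medians use the brightest kept probe. Where no array of a group was well above background, a fold is a lower bound, computed against, per array, the higher of the lowest signal well above background and the gene's own signal. Each array held 1 mouse, and the p-values measure the spread between these mice.

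Named genes were Nkx2-5, Gja5, the 20 largest increases and 15 largest decreases among called genes with symbols and separate groups, each called member of 33 lists (530 genes, 461 measured, 1 list sex-linked), and the first 2 measured members of each list. One gene that this rule names is not reported here. The members and lists were chosen with earlier results of these data known. Names are those of the array, and 16318 kept probes were matched by accession to a current RefSeq symbol. Probe positions are those of the array's design, mm9. Promoter windows are RefSeq, GRCm38.p6. The fit was tested on simulated data. The alternatives tried included normexp (offset 50), 75th percentile scaling, the authors' values, detection on 9 of 12 arrays in place of the filter, all probes unfiltered, fits of 2 groups, the replicate number as a block, sex as a covariate, array weights, a variance trend, SAM at 5%, a doubling as a minimum, and each array left out. Leaving out pairs of arrays was added after seeing the data. Python 3.11.15 and matplotlib 3.10.9 drew the figures. Other data of the study were not analysed here.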

Additional observations from a re-analysis of the deposited data

Results flagged for a closer look

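Single far arrays were sought over 131 genes, those that the naming rule picks and others given values in the text. In 27 of 262 groups of 4 arrays, 1 array lay far from the other 3. Its gap to the nearest array, relative to the range, was above Dixon's critical value. Chance gives about 1 in 20. Control replicate 1 was the far array in 8 of them and TrbE14 replicate 2 in 6. In control replicate 1 the ratio of gap to range was 0.863 for Adora2b, 0.843 for Agbl2, 0.898 for Eya4, 0.994 for Grhl3, 0.930 for Ryr2 and 0.855 for Unc5b, and it was 0.995 for Ddx3y and 0.961 for Xist, which differ with sex. In TrbE14 replicate 1 the ratio was 0.969 for Ddx3y, 0.996 for Xist and 0.872 for Bmp4. In TrbE14 replicate 2 it was 0.855 for Agbl2, 0.900 for Eps8l1, 0.835 for Msr1, 0.832 for Myoc, 0.835 for Nppb and 0.837 for Slc2a4.

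TrbE14 replicate 3 was apart in Csf1 (0.892) and H2-Aa (0.843), and TrbE14 replicate 4 in Col1a1 (0.836). Control replicate 2 was apart in Cdh5 (0.910), control replicate 3 in Cfi (0.835), Csf1r (0.853), H2-Aa (0.959) and Postn (0.899), and control replicate 4 in Adipoq (0.901) and Krt8 (0.837). In Csf1r the far control, at 12.43, was the one nearest to the TrbE14 hearts, and in H2-Aa the far arrays of both groups, at 10.53 and 9.30, were the highest.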

How the results depend on the processing

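The count of 137 genes called in TrbE14 hearts, 76.6% of them higher, stayed within 1.5 times under scaling to the 75th percentile, both filters, the authors' values, fits on 8 arrays, sex as a covariate and a variance trend (103 to 178 genes). Normexp gave 223 genes (65.5% higher), array weights 237, SAM 299 (88.0% higher) and a required doubling 82. With the replicate number as a block, 8 genes were called; deviations of same-numbered arrays correlated at -0.24, -0.03, -0.11 and -0.06, so that the numbers do not pair the hearts. With each array left out the count ranged from 76 (without control replicate 3) to 174 (without TrbE10 replicate 2) and the share higher from 67.7% to 83.2%. Among the groups compared, the count moved by over 1.5 times without control replicates 1 (86), 3 (76) and 4 (83) or TrbE14 replicates 2 (89), 3 (85) and 4 (87). Leaving out TrbE14 replicates 3 and 4 gave 50 genes (84.0% higher, 40 of them shared with the 137), replicates 1 and 2 gave 322 (41.9%, 87 shared), and the arrays with the lowest Dbp, a clock gene (control replicate 1 and TrbE14 replicate 2), gave 52 (88.5%, 47 shared). The cause was not tested. The direct comparison of the mutants had 2 called genes under scaling to the 75th percentile, 2 without a filter, 2 with SAM and 0 to 1 with each array left out (1 without TrbE14 replicate 2). The change in Nkx2-5 ranged from -0.66 to -0.50 with each array left out and missed the threshold under every alternative run. Each of Pacsin1, Cpa3, Mctp1, Sfrp2, Dcn, Fbn1, Col4a1, Tbx20, Vwf, Ankrd1, Aqp1, Slc36a1, Agbl2, Tmed5, Ahrr, Hras1, Fam70b and Oaf lost its call without at least 1 array. Of 44 named genes recomputed under the alternatives that kept them, no called one turned its direction. Detection on 9 of 12 arrays kept 23 of the 44. With the authors' values 17 of these 44 lost their call, among them Cfi (0.75), Cpa3 (0.33), Grhl3 (0.40), Mctp1 (0.15), Rtn4r (-1.01), Cxcr3 (-0.73) and Tmed5 (-0.02). The median of all probes under the scalings ranged from -0.059 to -0.021. Levels near background limit the precision of the dim genes.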

Other observations

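Several genes varied between hearts without regard to the groups. Dbp, an output gene of the circadian clock, read 11.21, 13.94, 14.24 and 14.51 in control and 13.42, 11.99, 14.20 and 14.35 in TrbE14 hearts. Tnni3k, a kinase gene of heart muscle, read 12.67, 9.57, 12.70 and 13.53 in control and 9.83, 10.05, 12.72 and 12.67 in TrbE14 hearts, so that 1 control and 2 mutants were low. Trim12a read 8.92, 9.12, 2.52 and 9.22 in control and 2.55, 2.56, 8.70 and 9.74 in TrbE14 hearts, with values at background in 1 control and 2 mutants. Between TrbE14 replicates 1 and 2 on one side and 3 and 4 on the other, Aplnr, the apelin receptor, was 8.34 and 8.65 against 5.44 and 5.57, Cx3cr1, the fractalkine receptor, 9.84 and 10.05 against 7.96 and 7.90, and Irs2, an adaptor of insulin signalling, 10.23 and 10.49 against 12.80 and 12.82. TrbE10 replicate 4 read 5.42 for Aplnr, 7.99 for Cx3cr1 and 12.68 for Irs2.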
